A study of Drosophila melanogaster with 24 samples.

Results

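Gene expression in heads of adult Drosophila melanogaster was compared between the sexes, over the w1118 control strain and the lol (Lobe-less) mutant together. The comparison used all 12 head arrays of the 24 arrays in the study: 3 of w1118 females, 3 of w1118 males, 3 of lol females and 3 of lol males. The other 12 arrays, of whole bodies of the same strains and sexes, served as a second reading of sex differences on separate arrays. Adult flies from cultures kept at 23 °C were frozen on day 2, and the heads, 100 for each extraction, were separated by sieving. Each array was hybridised with RNA of a separate culture, per the labels, so a replicate is a pool of flies. The labels give no further genotype for either strain, and lol is named in the study's title as a long noncoding RNA needed for the form of the mushroom body.

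In Drosophila, each cell reads its sex through a splicing cascade that starts with Sex-lethal and ends with doublesex and fruitless, which set sex-specific transcription in the fat body and the nervous system. The head holds the brain and eyes together with a layer of fat body, a secretory tissue that in females makes yolk proteins. It holds no gonads, which are the source of most sex-biased transcripts of a whole fly. In such pooled tissue, a change in the number of cells of a type and a change in RNA per cell cannot be told apart.

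Values were log2 expression levels of 13873 transcripts. The files give FlyBase transcript IDs without gene names, and 16 measured IDs could be paired with a single gene. None of the 60 marker genes of photoreceptors, neurons, head fat body, sex determination, ovary, testis and accessory gland could be paired, so the tissue and sex labels were not checked against defining markers. Other transcripts are given by ID. Median SDs between replicate head arrays lay between 0.177 (w1118 females) and 0.255 log2 (w1118 males). The 3 w1118 male head arrays correlated at 0.912 to 0.97 across transcripts, and lol male head arrays at 0.933 to 0.986.

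Some head arrays stood apart in body transcripts, and this is given before the results because it moves with sex. Of 1492 transcripts higher in male than female whole bodies by at least 2 log2 (male-body-biased, defined on body arrays alone), the median level was 9.86 on w1118 male head replicate 1, 10.63 on w1118 male head replicate 2 and 10.12 on lol male head replicate 1. The range over the remaining 9 head arrays was 8.42 to 8.63. A further set of 135 transcripts (sex-neutral) differed by under 0.5 log2 between the sexes of bodies. Each stood at least 2 log2 higher in every body group than in the mean of 8 head arrays. Those 8 left out the 3 above and lol female head replicate 1. The median of this set was 11.1, 11.27 and 10.93 on the same 3 arrays. It was 10.65 on lol female head replicate 1, against 8.74 to 9.22 on the other 8 head arrays. Low levels on the 8 were part of the definition, so this gap follows in part from the choice. On lol female head replicate 1 the male-body-biased set was at 8.44, as low as on the other female arrays. By these sets the 4 arrays were high in body transcripts, lol female head replicate 1 by the sex-neutral set alone, and 3 of the 4 were male.

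**Figure D1:**
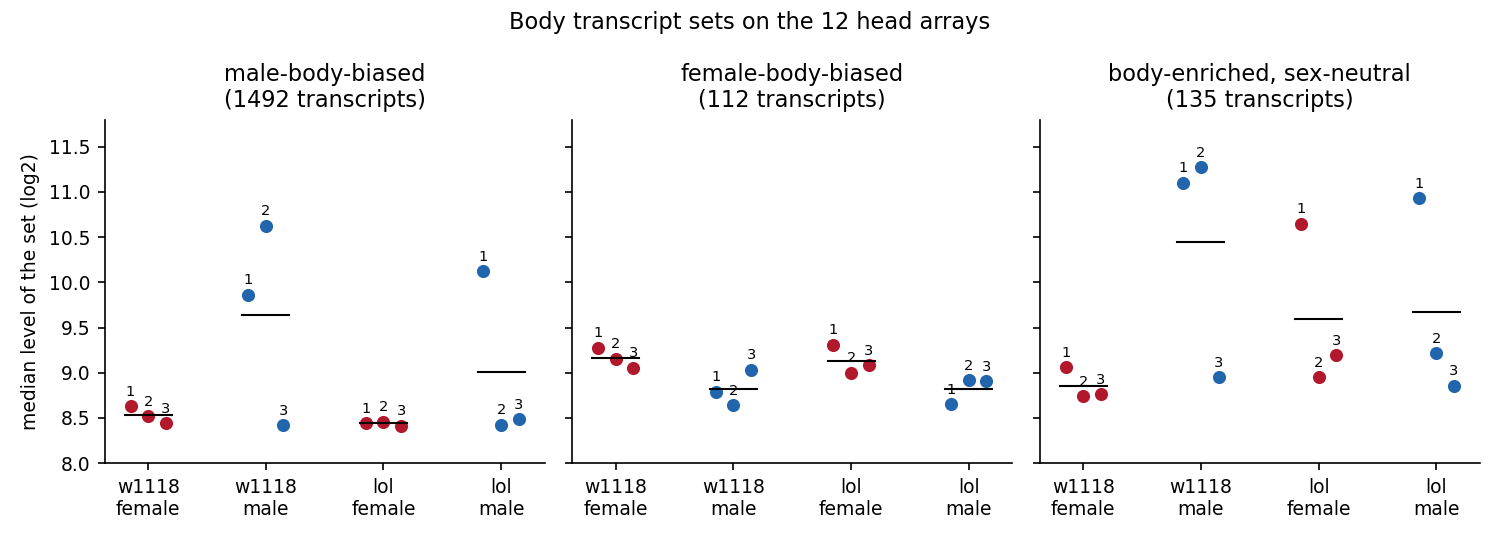
Median log2 level of 3 body transcript sets on each of the 12 head arrays, with females in red, males in blue, replicate numbers above the points and group means as bars. W1118 male replicates 1 and 2 and lol male replicate 1 are high in the male-body-biased and in the sex-neutral set, and lol female replicate 1 only in the sex-neutral set.

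Over both strains, 20 transcripts differed between female and male heads, 14 higher in females and 6 higher in males (limma with strain as a covariate, adjusted p between 0.000328 and 0.0472). This was 0.144% of the transcripts tested (0.101% higher in females and 0.0432% higher in males), and 1238 had an unadjusted p under 0.05. In absolute size the differences ran from 0.54 to 3.14 log2, with a median of 0.91. Of the 8 that reached 1 log2, 3 were higher in females and 5 in males. In every one of the 20, the 3 female arrays lay on one side of the 3 male arrays in w1118 (as for 10.4% of all transcripts) and again in lol (5.87%). The 20 were called on these same arrays, so such separation follows in part from the choice. The count depended on each array: it fell to between 3 and 11 without any one of 10 head arrays, and was 16 without w1118 male replicate 2 and 15 without lol female replicate 3. It was lowest, at 3, without w1118 female replicate 1, lol female replicate 1 or lol male replicate 1.

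FBtr0081759 was the only transcript called in each strain by itself, and it was higher in males. In w1118 its log2 level was 10.62, 10.27 and 10.45 on the female head arrays and 12.24, 12.57 and 12.68 on the male ones. In lol it was 10.87, 10.28 and 9.95 in females and 12.67, 12.35 and 12.52 in males. All 6 male arrays lay above all 6 female arrays. None of the male arrays high in body transcripts (12.24, 12.57 and 12.67) exceeded the highest other male array (12.68), and 12.24 was the lowest male level. Over both strains females stood -2.1 ± 0.15 (SE) log2 from males, a 4.28-fold higher level in males (95% interval 3.41 to 5.39, adjusted p = 0.000328, limma). The difference was -2.05 in w1118 (adjusted p = 0.0462) and -2.15 in lol (adjusted p = 0.03). These were the only calls of the single-strain comparisons (0.00721% of transcripts in each), where 902 transcripts in w1118 and 298 in lol had an unadjusted p under 0.05. Without the 4 arrays the difference was -2.28 (adjusted p = 0.00229), and this was the only transcript still called. It stayed called over both strains under all 21 alternatives run. The single-strain calls were less steady. The replicate number as a block, or fits to the 6 arrays of a strain alone, ended both of them. Median centring and the covariate of body level ended that of w1118. The fit without the 4 arrays, with a single w1118 male array left, also ended that of w1118 and kept that of lol. With single arrays left out, the w1118 call was lost in 10 of 12 fits, the lol call in 9 and the call in both strains in 11. In whole bodies it was higher in males by a like amount, at -2.31 ± 0.18 (SE) log2.

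FBtr0071424 had the largest called difference, 3.14 ± 0.49 (SE) log2 higher in females, or 8.84-fold (95% interval 4.21 to 18.6, adjusted p = 0.0395, limma). Female heads were uniform and near the top of the scale, at 15.7, 15.77 and 15.6 in w1118 and 15.57, 15.6 and 15.77 in lol. Male heads were lower and scattered, at 11.54, 14.01 and 10.88 in w1118 and 11.82, 13.37 and 13.52 in lol. No male array reached a female one. The females lay close to the highest value on any array (15.92), and whether differences are compressed there was not tested. Of the 3 male arrays high in body transcripts, w1118 replicates 1 and 2 lay above the remaining w1118 male array and lol replicate 1 below the other lol males. The nearest male array to the females was w1118 male replicate 2, and whether its pool held flies of the other sex was not tested. The call was lost without any single head array other than w1118 male replicate 2, and without the 4 arrays (3.34 log2). It was also lost with the covariate of body level (3.14 log2, adjusted p = 0.0853, limma) and in a fit to all 24 arrays (adjusted p = 0.058).

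A second transcript, FBtr0071419, singled out after its values were seen, had a larger difference that was not called over both strains (3.95 ± 0.81 (SE) log2, adjusted p = 0.159, limma). Female heads stood at 15.77, 15.75 and 15.68 in w1118 and 15.65, 15.66 and 15.68 in lol. Male heads stood at 10.47, 14.62 and 10.15 in w1118 and 9.26, 13.06 and 12.91 in lol, the same arrays being high and low as for FBtr0071424. The female arrays all lay above the male ones, and the male spread kept the test from passing. Without w1118 male replicate 2 it passed (4.58, adjusted p = 0.03). Without the 4 arrays both FBtr0071419 and FBtr0071424 were called in w1118 and in lol taken singly, with adjusted p up to 0.013 (limma), though w1118 males were then a single array, taken to have the spread of the other groups.

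The remaining transcripts with a called difference of at least 1 log2 were steadier across males. FBtr0070139 was higher in females, at 13.2, 13.31 and 12.96 against 11.79, 12.48 and 12.19 in w1118 and at 12.99, 13.02 and 13.06 against 11.85, 11.6 and 11.66 in lol. Its difference of 1.16 ± 0.12 (SE) log2 (adjusted p = 0.00604, limma) was called without any one of the 12 head arrays. FBtr0083225 was higher in males, at 14.46, 14.15 and 14.23 against 12.97, 13.34 and 12.7 in w1118 and at 14, 13.85 and 13.87 against 12.81, 13 and 12.94 in lol. Its difference of -1.13 ± 0.12 (adjusted p = 0.00604) was also called with each array left out. These 2 and FBtr0081759 were the only 3 of the 20 of which that held, and both were named after their values were seen.

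FBtr0085531 was higher in females by 1.49 ± 0.21 (SE) log2 (adjusted p = 0.0287, limma). Its levels were 10.32, 10.81 and 9.46 in w1118 females against 8.33, 8.51 and 8.4 in w1118 males, and 11.54, 11.41 and 11.77 in lol females against 10.18, 10.65 and 10.3 in lol males. The sexes were apart in each strain, but lol males lay within the range of w1118 females. FBtr0071288 was higher in males by 1.3 log2 (-1.3 ± 0.19, adjusted p = 0.0302), with means of 12.41 ± 0.36 against 11.16 ± 0.37 (SD, n = 3) in w1118 and 12.44 ± 0.28 against 11.1 ± 0.43 in lol. FBtr0100201 was also higher in males, at 13.4 ± 0.42 against 12.53 ± 0.4 (SD, n = 3) in w1118 and at 13.66 ± 0.12 against 12.08 ± 0.18 in lol (-1.23 ± 0.19 over both, adjusted p = 0.0398). The calls of these 3 each held in 2 to 4 of the 12 fits that left out 1 array. FBtr0070426, the fifth transcript higher in males by at least 1 log2, is described with the bodies. The 12 other called transcripts, 11 higher in females and 1 in males, differed by under 1 log2.

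**Figure D2:**
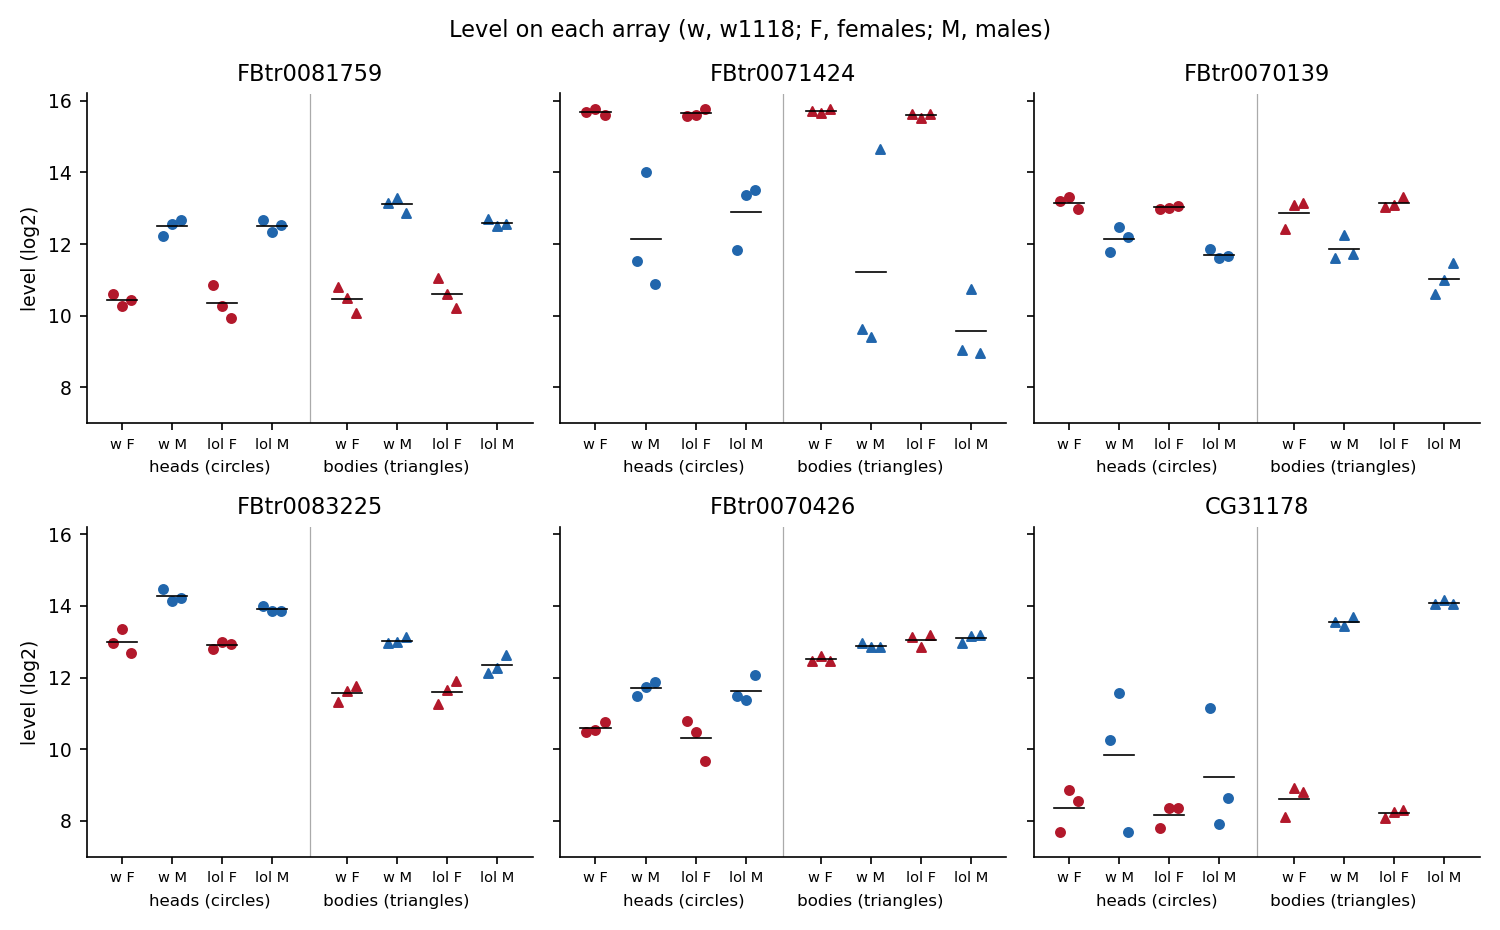
Log2 level on each array of 5 called transcripts and CG31178, with heads as circles at the left of each panel, bodies as triangles at the right, females in red, males in blue and bars at group means. The sexes are apart on head arrays for the 5 called transcripts, while CG31178 is raised only on 3 of the 6 male head arrays.

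Whether the sex difference of heads differs between w1118 and lol was tested as an interaction. With limma 0 of the 13873 transcripts passed, while the unadjusted p was under 0.05 for 125. Among the 20 called transcripts none had an unadjusted p under 0.05 in this test, 14 had the larger difference in lol, and the largest gap between strains was 0.8 log2. A test that missed its threshold does not show that the strains were alike, since the SE of a gap was 0.23 to 0.99 log2 for the 8 transcripts of at least 1 log2. Over all transcripts, 166 had non-overlapping sexes in both strains in the same direction (1.2%, 108 higher in females and 58 in males), and 8 in opposite directions (0.0577%). The 166 had a median absolute difference of 0.48 log2, and 31 of them (18.7%) were male-body-biased, 7 (4.22%) female-body-biased and 128 (77.1%) in no body set. Over all transcripts these shares were 10.8%, 0.807% and 87.5%. Without the 4 arrays a single transcript, FBtr0071419, passed the interaction test (adjusted p = 0.0466), its difference being larger in w1118, where 1 male array was left.

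**Figure D3:**
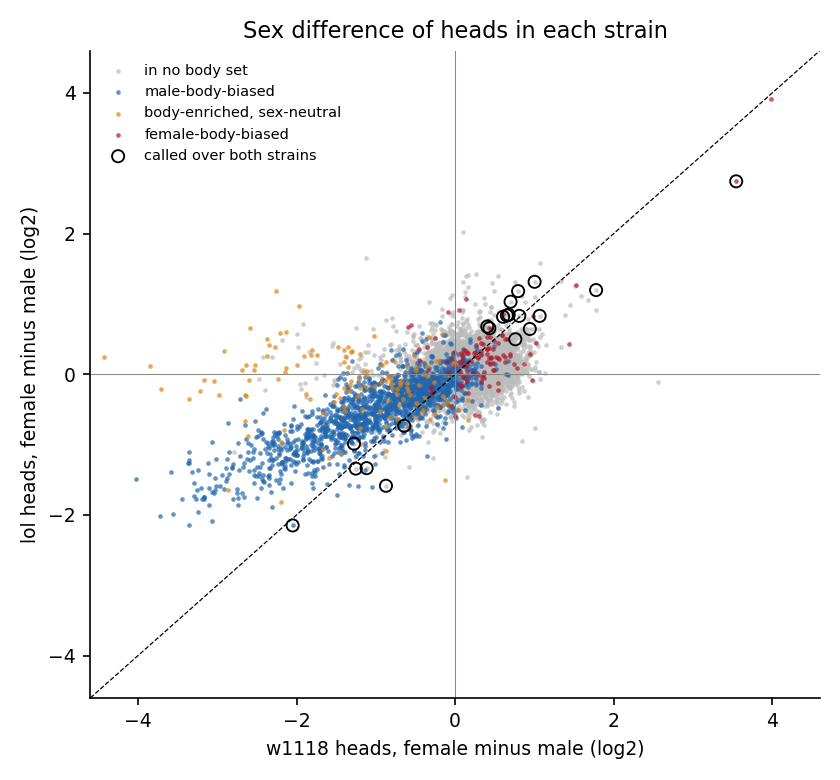
Female minus male log2 difference of heads in w1118 (x axis) and lol (y axis) for each transcript, coloured by body set, with the 20 called transcripts circled and a dashed line of equality. The called transcripts lie near the line, and the male-body-biased ones extend to the lower left, further in w1118 than in lol.

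Most large differences between female and male heads were not called and were tied to the 4 arrays. A difference of at least 1 log2 over the 12 arrays was found for 532 transcripts (3.83%), of which 515 were higher in males and 17 in females. Of the 515, 463 were male-body-biased and 33 were in the sex-neutral body set. Without the 4 arrays 40 transcripts reached 1 log2 (0.288%), and 22 were in both counts, all with the same sign. In 475 transcripts the difference was at least 1 log2 with the 4 arrays and under 0.5 without them. All 475 were higher in males, none was among the 8 called transcripts of at least 1 log2, and 434 were male-body-biased, 28 sex-neutral and 13 in no body set. Those 13 all stood at least 1 log2 higher in male bodies than in the other 8 heads. The 4 arrays had been picked by the levels of such transcripts, so a small difference without them follows in part from the choice.

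CG31178, a male-body-biased transcript and 1 of the 16 with a gene name, showed this on single arrays. Its log2 level was 10.25, 11.56 and 7.69 in w1118 male heads and 11.15, 7.9 and 8.63 in lol male heads, against 7.69, 8.86 and 8.55 in w1118 female heads and 7.8, 8.35 and 8.37 in lol female heads. The 3 raised male arrays were those high in body transcripts, and the other 3 male arrays lay within the range of the females. In bodies it stood at 13.45 to 13.68 in w1118 males and 14.05 to 14.17 in lol males, and at 8.1 to 8.91 in females of either strain. The head difference of -1.26 ± 0.67 (SE) log2 was not called (adjusted p = 0.618, limma), and it was 0.34 without the 4 arrays.

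The male-body-biased set as a whole had a median head difference of -0.68 log2, -0.9 in w1118 and -0.47 in lol, against 0.03 over all transcripts. It was 0.02 without the 4 arrays, and ranged from -0.87 to -0.46 with single arrays left out. Of its 1492 transcripts 1 was called, FBtr0081759, against 0.144% of all transcripts. The sex-neutral body set had a median of -0.62 (-1.19 in w1118 and -0.14 in lol, where an array of each sex was high). Its median was -0.02 without the 4 arrays. Of its 135 transcripts 0 were called, which at a share of 0.144% does not set it apart. Between the sexes, the array medians of these sets did not pass a test over arrays (exact permutation test within strains, two-sided, adjusted p = 0.145 for each, over 3 sets). The smallest p this test allows is 0.005.

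Transcripts higher in female bodies by at least 2 log2 (female-body-biased, 112 in all) were a little higher in female heads. Their array medians were 9.28, 9.16 and 9.06 in w1118 females against 8.79, 8.64 and 9.03 in w1118 males, and 9.31, 9 and 9.09 in lol females against 8.65, 8.92 and 8.91 in lol males. The sexes were apart in each strain (exact permutation test, two-sided, p = 0.005, the smallest it can give, adjusted p = 0.015). The 3 male arrays high in body transcripts were the 3 lowest for this set, and lol female replicate 1 was the highest. The median difference was 0.26 log2 with the 4 arrays and 0.09 without them, when 64.3% of the 112 were higher in females. Of the 112, FBtr0071424 and 1 other were called, against 0.144% of all transcripts. Across transcripts, which are not independent, the head differences of w1118 and lol correlated at r = 0.676, and at 0.0967 without the 4 arrays. Head and body differences correlated at 0.768, and at 0.0339 without them. With the 4 arrays left out, a single w1118 male head array remained. How far noise on the fewer arrays lowered these correlations was not tested.

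**Figure D4:**
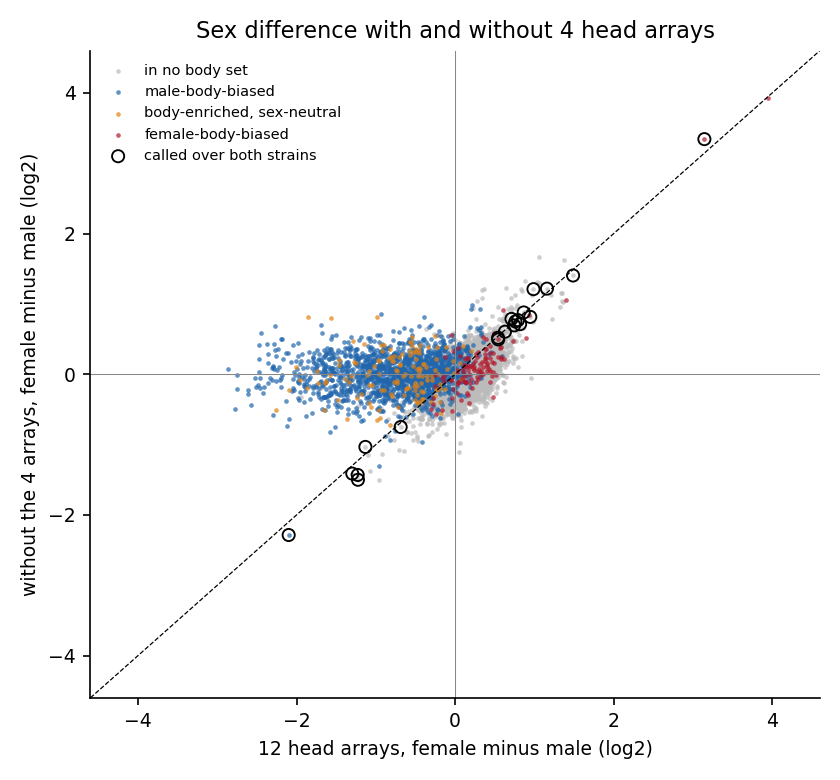
Female minus male log2 difference of heads for each transcript over the 12 head arrays (x axis) and without the 4 arrays high in body transcripts (y axis), coloured by body set, with called transcripts circled. Most body-set transcripts with large differences spread along the x axis. A few, among them FBtr0071419, FBtr0071424 and FBtr0081759, also lie far from 0 on the y axis. The circled transcripts follow the dashed line of equality.

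The 20 called differences were about as large without the 4 arrays as with them. Every one kept its sign, and their size was 86% to 122% of that over the 12 arrays, with a median of 100.1%. The 95% interval of the difference, not adjusted for the number of transcripts, left out 0 in all of the 19 that lost their call on these 8 arrays. The sexes did not overlap over the 8 arrays, with both strains joined, for 16 of the 20 (2.83% of all transcripts). A call asks for a small spread within each sex, and a rise on 3 of the 6 male arrays widens it, so this steadiness follows in part from the choice of called transcripts. With the level of the sex-neutral body set as a covariate 9 of the 20 were called, among 11 in all.

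Whole bodies gave a reading on arrays that the head comparison did not use. A whole body includes its head, and whether head and body arrays were normalized as one is not given, so this reading is not fully independent. Of the 20, 19 had the same direction in bodies, and 18 were called there in that direction: all 14 of the transcripts higher in female heads and 4 of the 6 higher in male heads. The background was high, since 68.5% of all transcripts were called in bodies, 51.6% as higher in females and 16.9% as higher in males, and 52.8% were called in the direction of their head difference. The median absolute difference of the 20 was 1.17 log2 in bodies. Head and body sex differences themselves differed for 8 of the 20 (limma on 24 arrays, 45.8% of all transcripts, a test added after the data had been seen). In 6 of the 8, all higher in females, the head difference was the smaller.

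The 2 exceptions were the transcripts higher in male heads that were not called in bodies, and both are named for that after their values were seen. FBtr0070426 stood at 10.48, 10.53 and 10.77 in w1118 female heads against 11.49, 11.75 and 11.89 in male ones, and at 10.78, 10.47 and 9.66 against 11.48, 11.37 and 12.07 in lol (-1.23 ± 0.19 (SE) log2, adjusted p = 0.0397, limma). In bodies its difference was -0.21 ± 0.1 (adjusted p = 0.0744, limma), at higher levels of 12.45 to 13.19. That body difference was -0.38 in w1118, where males (12.85 to 12.95) lay above females (12.45 to 12.59), and -0.03 in lol. The head difference exceeded the body difference by 1.02 log2 towards males (adjusted p = 0.000854), and by 1.27 without the 4 arrays (adjusted p = 0.000317). Its head call itself was lost with the replicate block (adjusted p = 0.0956), with the covariate of body level (0.0853), without the 4 arrays (0.242) and in 11 of 12 fits with 1 array left out (all but lol female replicate 3). FBtr0078592 stood at 11.64, 11.76 and 11.69 in w1118 female heads against 12.11, 12.37 and 12.52 in male ones, and at 13.01, 13.28 and 13.16 against 13.83, 14.05 and 13.76 in lol (-0.69 ± 0.09, adjusted p = 0.0186). In bodies it differed by 0.07 ± 0.14, and the head and body differences were 0.75 log2 apart (adjusted p = 0.00171). Its head call was lost without the 4 arrays (adjusted p = 0.185) and in 6 of 12 fits with 1 array left out. Without the 4 arrays, 46% of all transcripts were called in this test of heads against bodies.

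**Figure D5:**
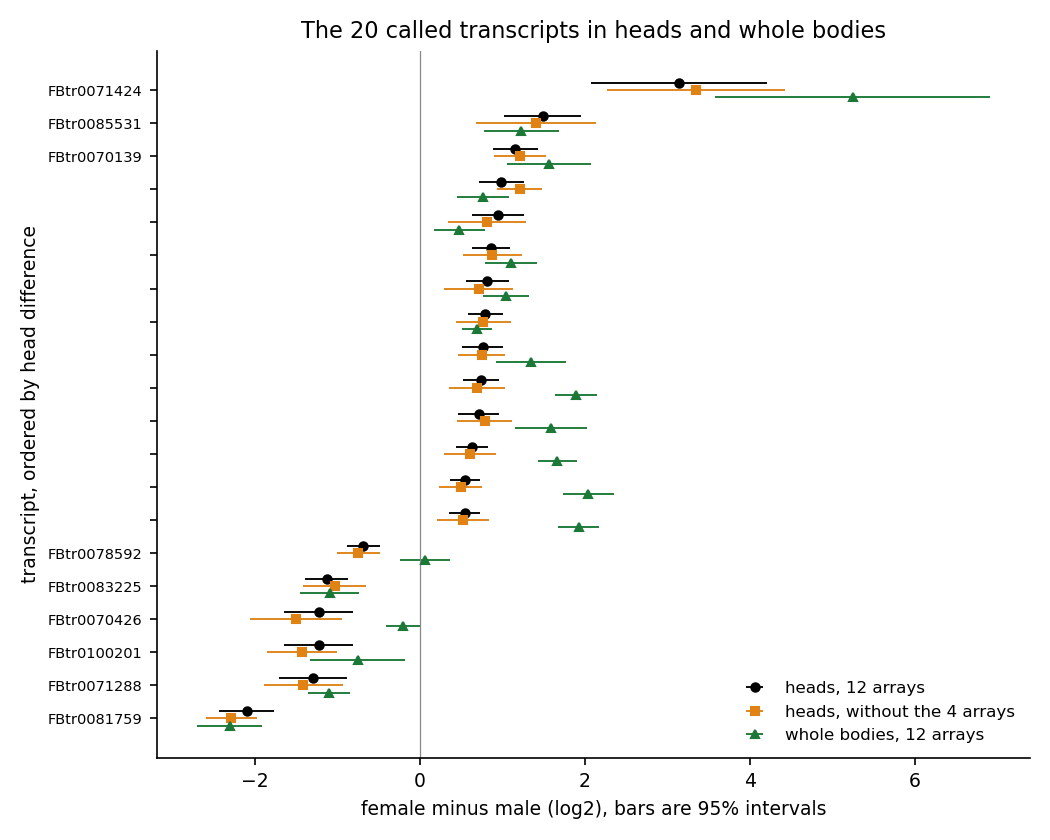
Female minus male log2 difference, with 95% intervals, of the 20 called transcripts in heads over 12 arrays (black), in heads without the 4 arrays (orange) and in whole bodies (green); only transcripts named in the text carry a label. Head differences with and without the 4 arrays overlap throughout, and FBtr0070426 and FBtr0078592 are near 0 in bodies and below 0 in heads.

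Among the 16 transcripts with a gene name, 0 were called between female and male heads (adjusted p between 0.618 and 0.999, limma), against 0.144% of all transcripts. Likewise 0 of the 16 had an unadjusted p under 0.05, against 1238 of the 13873 transcripts tested. At such shares a count of 0 does not set these 16 apart. Apart from CG31178, their differences were at most 0.12 log2, and no 95% interval reached beyond 0.38 log2. For 5 of them (CG16974, Fatp1, NaPi-III, rdx and Uba1) the mean head level was above 15, near the top of the scale. LanA, which encodes an alpha chain of the basement membrane protein laminin, stood at 14.35 ± 0.27 in females and 14.11 ± 0.25 in males of w1118 (SD, n = 3), and at 13.48 ± 0.12 and 13.47 ± 0.08 in lol. Its sex difference was 0.12 ± 0.12 (SE) log2. SuUR, which encodes a suppressor of DNA replication in the heterochromatin of polytene cells, differed by 0 ± 0.14, sle (slender lobes) by -0.12 ± 0.12 and alpha-Spec, the alpha subunit of the spectrin membrane skeleton, by 0.08 ± 0.07. In bodies 13 of the 16 were called (81.2%, against 68.5% of all transcripts), 11 of them higher in females (68.8%, against 51.6%). The other 2, sle and CG31178, were higher in males, sle by 0.84 log2 in lol (-0.84, adjusted p = 0.00164, limma) and with no call in w1118 (-0.01, adjusted p = 0.952). The difference between head and body was itself called for 11 of the 16 (68.8%, against 45.8% of all transcripts), LanA (-0.57, adjusted p = 0.0022) and SuUR (-0.54, adjusted p = 0.0286) among them.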

How the data were processed

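The deposited values were log2 expression levels per transcript, which the authors had made with RMA, per the submitters' processing notes. RMA (robust multi-array average) removes background, makes the probe distributions of arrays equal and then combines the probes of each transcript. The array carried Cy3-labelled RNA and was designed for 16637 transcripts with 8 probes each, per the labels. A software version and the set of arrays normalized as one are not given in the sources at hand. Base 2 follows from the range of the values (6.6134 to 15.9201). Of 15595 transcripts, 1722 had no values and were left out. Arrays have no count depth, so their number sets the precision.

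Differences were tested with limma 3.58.1 in R 4.3.3 (lmFit and eBayes) on the 12 head arrays: sex with strain as an additive covariate, and single strains and their interaction from a mean for each of 4 groups. The Benjamini-Hochberg adjustment ran over 13873 transcripts, and adjusted p under 0.05 was called. Body differences used the same additive model on the 12 body arrays. The procedure was run on simulated data with independent noise for each transcript and the same spread in every group. No simulated array was raised in body transcripts, so arrays like the 4 were not covered. The comparison, the 4 arrays, the marker lists and the body sets were chosen with earlier results of these data known. Transcripts were named by size among called, non-overlapping ones of at least 1 log2, at most 2 per direction, apart from those said to be named later. Of 49 FlyBase transcript IDs in the RefSeq gene table (Release 6), 43 were measured, 16 of them with 1 gene and 27 with several, which are not named.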

Additional observations from a re-analysis of the deposited data

How the results depend on the processing

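The count of 20 calls over both strains was 53 with all 24 arrays in the fit (19 of the 20 among them), 40 with array weights (all 20), 11 with the sex-neutral body level as a covariate, 1 without the 4 arrays, and 3 to 16 with single arrays left out. It was within 1.5 times of 20 with an intensity trend (15, with or without the robust prior), quantile normalization again (26), median centring (20) and the lowest 25% of transcripts dropped (18). For single strains the trend was run only together with the robust prior. The single call in w1118 became 12 with all 24 arrays and 5 with the trend. It became 2 with quantile normalization again and 4 with the lowest 25% dropped. It was 0 with centring, the covariate, the replicate block or the 6 strain arrays alone (0 to 2 with single arrays left out). Without the 4 arrays it was lost and other transcripts were called, with a single w1118 male array left. The single call in lol became 12 with all 24 arrays, 4 with the trend, 7 with array weights, 3 without the 4 arrays and 0 with the block or the 6 arrays (0 to 3 with single arrays left out). The count of 1 transcript called in both strains became 6 with all 24 arrays, all among the 20. It became 0 with centring, the covariate, the block or 6 arrays per strain (0 to 1 with single arrays left out). Without the 4 arrays FBtr0081759 was no longer called in both strains. FBtr0071419 and FBtr0071424 were called in its place, with a single w1118 male array left. The interaction count of 0 was 1 without the 4 arrays and 0 under each other alternative, single arrays left out included. The cause of these changes was not tested, and this includes the smaller number of arrays in some of the fits. With the replicate number as a block 19 transcripts were called, 16 of them among the 20. The labels give separate cultures and no shared batch, so the numbers were not taken as pairs. Of 6 pairs of same-numbered female and male arrays of a strain, 4 correlated over 0.1 in their deviations (all 3 of w1118 and replicate 1 of lol, range -0.178 to 0.633), 7 of 12 arrays correlated best with their own number, and a shared day was not tested. No called transcript changed sign under any alternative. Levels near the top of the scale limit what FBtr0071424, FBtr0071419, 1 other called transcript and 5 of the named genes can show, to an extent that was not tested.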

Other observations

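The transcripts FBtr0071419 and FBtr0071424, uniformly high in females, were also scattered among male bodies. FBtr0071419 stood at 8.7, 7.92 and 14.56 on the w1118 male whole-body arrays and at 7.66, 9.01 and 8.02 on the lol ones, and FBtr0071424 at 9.63, 9.42 and 14.65 and at 9.04, 10.74 and 8.96. W1118 male whole body replicate 3 was thus near the female bodies (15.51 to 15.8) for both. Its median of the female-body-biased set was 8.45, and the other male bodies ranged from 8.36 to 8.52. Without that array the body difference was 7.47 log2 for FBtr0071419, against 6.43 with it, and 6.09 for FBtr0071424, against 5.25. Whether the pool of that array held flies of the other sex was not tested.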
